A study of Mus musculus with 12 samples.

Results

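The genes described here take up, store, export and sense iron, bind zinc and copper, or break down haem: Tfrc, Slc11a2, Fth1, Ftl1, Slc40a1, Aco1, Ireb2, Mt1, Mt2 and Hmox1. They were taken by gene symbol from an RNA sequencing table of 55228 genes, in which all 10 were found. Values were TPM, a share of a library's transcripts that is corrected for transcript length, divided by 1 factor per library and called scaled TPM below. TPM keep no sequencing depth, so the spread between libraries is the error given. Of the 10 genes, 9 had a mean TPM of at least 1 and were tested among 15043 genes, and Slc40a1 lay under that level and is given by its levels alone.

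The cells were regulatory T cells (Tregs), the CD4+ T cells that express Foxp3 and restrain immune responses. They came from lymph nodes of 16 NOD.Foxp3-GFP mice, whose cells were pooled, divided into 3 parts and sorted for Foxp3.GFP and CD25. Each part was activated on its own, transduced on day 2 and purified on day 9 by the Thy1.1 marker of the vector. IL-2, the growth factor on which Tregs depend, was washed out on day 4 for 5 days, except in EV+IL-2.

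There were 4 groups of 3 libraries. EV no IL-2 carried the empty vector and was the control, and EV+IL-2 carried the same vector and stayed in medium with IL-2. The cells named 1G12t and 3A10t had no IL-2 in the medium and carried constructs in which an orthogonal IL-2 variant, 1G12 or 3A10, is tethered through a CD25-derived linker to an orthogonal IL-2 receptor β chain. Orthogonal means engineered so that ligand and receptor bind each other in preference to the natural partners. The preference is not complete for 1G12. The paper reports that this variant can also act on the natural receptor when its concentration is high. The RNA of the constructs themselves was not analysed here. Cells of a group came from the same pool of mice, so the spread between 3 libraries is that of parallel cultures, and p-values measure that spread only.

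Cells import iron mainly as transferrin bound to the transferrin receptor, the product of Tfrc, and store the surplus in ferritin, a shell built of the heavy chain Fth1 and the light chain Ftl1. When iron is short, the iron regulatory proteins, encoded by Aco1 and Ireb2, bind hairpins called iron-responsive elements (IREs). Bound in the 3′ UTR of Tfrc they protect the mRNA, and bound in the 5′ UTR of the ferritins and of the exporter gene Slc40a1 they block translation, so that the amount of ferritin protein can change with no change in its mRNA. T cells take in much iron when they grow and divide, and CD71, the protein of Tfrc, is widely used as a sign of activation.

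These hairpins are shown because they are what ties uptake, storage and export to the iron regulatory proteins. Transcripts of GENCODE M21 (GRCm38) were searched for a C, 5 bases, a loop and 5 bases pairing with the first 5. The loop was CAGTG and any base but G, and G was allowed to pair with T. This pattern was found in 4 of the 10 genes and in 204 of 21877 protein-coding genes (0.932%), each by its longest coding transcript. Tfrc had 4 such sites in its 3′ UTR on the plus strand, at chr16:32631219-32631247, chr16:32631598-32631626, chr16:32631663-32631691 and chr16:32631710-32631738. Fth1 had 1 in the 5′ UTR at chr19:9982732-9982760 on the plus strand, Ftl1 had 1 at chr7:45459779-45459807 on the minus strand, and Slc40a1 had 1 at chr1:45925465-45925493 on the minus strand, both in the 5′ UTR. Capitals mark the loop, with 12 bases before it and 11 after it.
Tfrc site 1: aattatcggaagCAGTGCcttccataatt
Tfrc site 2: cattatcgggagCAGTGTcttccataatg
Tfrc site 3: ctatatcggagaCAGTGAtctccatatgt
Tfrc site 4: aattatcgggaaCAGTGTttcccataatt
Fth1: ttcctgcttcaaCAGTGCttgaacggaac
Ftl1: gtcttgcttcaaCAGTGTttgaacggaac
Slc40a1: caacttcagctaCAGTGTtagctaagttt
The Tfrc sites lie behind the coding region, and those of the ferritins and Slc40a1 before it. Not all annotated coding transcripts held them: 1 of 3 did for Tfrc, 4 of 5 for Fth1, 1 of 2 for Ftl1 and 1 of 4 for Slc40a1. The pattern was not found in coding transcripts of Slc11a2, Aco1, Ireb2, Mt1, Mt2 or Hmox1, which says only that these letters were not there.

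The libraries held the Treg markers Foxp3, Il2ra, Ctla4, Ikzf2, Cd3e and Cd4 in full, with a summed level of 1596 to 2242 scaled TPM. Summed markers of B cells reached 14.2 to 17.9 scaled TPM in 8 libraries, 26.9 in 1G12t replicate 3 and 20.9 to 27.2 in 3A10t, of macrophages and monocytes 1.67 to 5.27, and of CD8 T cells 3.45 to 6.51. Erythroid markers summed to 2.04 to 4.39 in 3 groups and to 24.8 to 39.0 in EV+IL-2. Some libraries stood apart. In 3A10t replicate 2, and less in 3A10t replicate 3, long transcripts were low and short ones high: the median difference from the EV no IL-2 mean over 4316 protein-coding genes with transcripts over 3000 bases was -0.36 and -0.21 on the log2 scale, against -0.04 in 3A10t replicate 1. In 1G12t replicate 3, several of the genes described here were low. The EV+IL-2 libraries listed fewer genes above 0, at 30393 to 36239, than the other 9, at 37930 to 43285. The longest transcripts of Tfrc, Aco1, Ireb2, Slc11a2 and Slc40a1 all exceed 3000 bases, and those of Fth1, Ftl1, Mt1, Mt2 and Hmox1 do not exceed 1569.

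**Figure D1:**
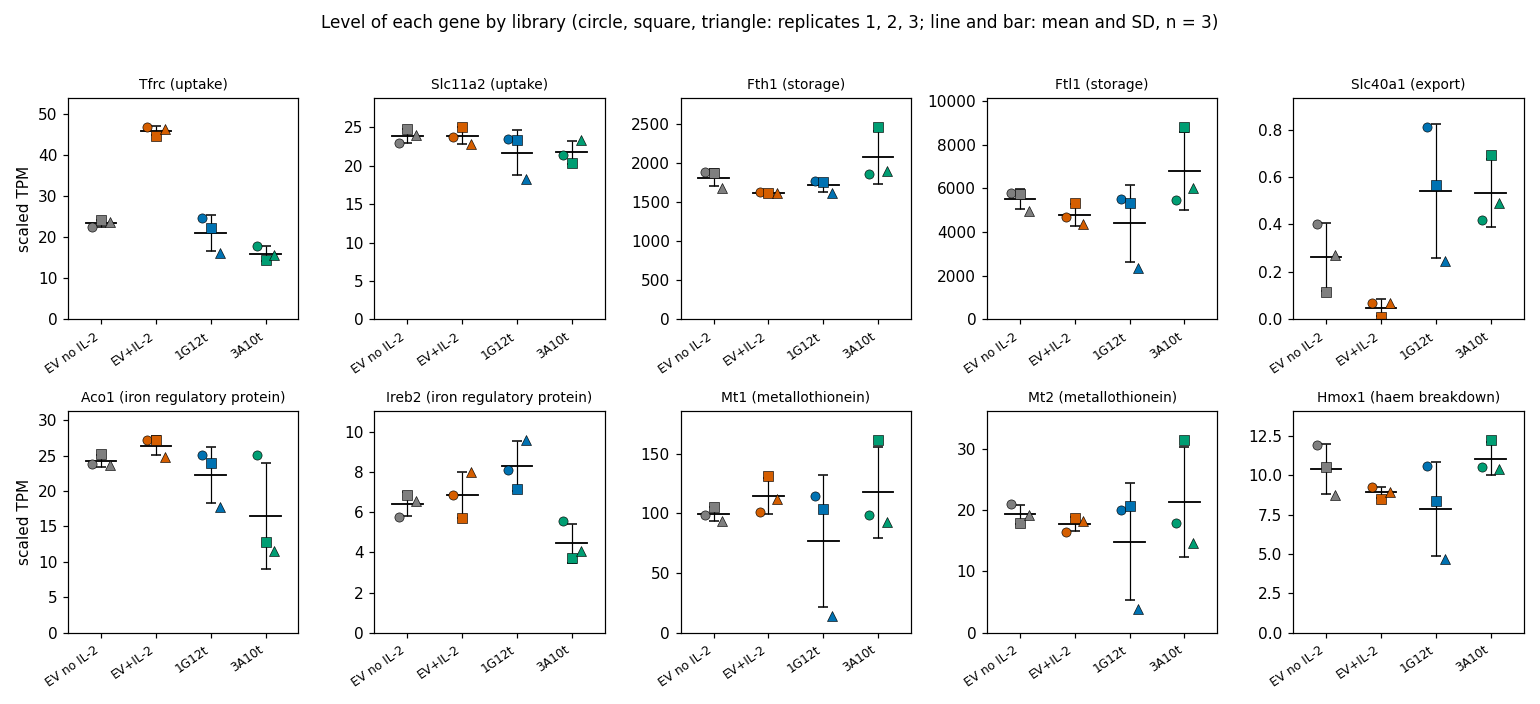
Level in scaled TPM (vertical axes, from 0) of each gene in the 12 libraries, by group (horizontal axes), with each library as a point and the mean and SD of 3 libraries as a line and bar. Tfrc stands at 44.6 to 46.9 in EV+IL-2 and at no more than 24.8 elsewhere, and 1G12t replicate 3 is the low point for Ftl1, Mt1, Mt2 and Hmox1.

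Tfrc, the transferrin receptor gene (chromosome 16, 32608920 to 32632794, plus strand, GRCm38), was the member that followed soluble IL-2. Its levels were 22.5, 24.1 and 23.7 scaled TPM in the EV no IL-2 libraries (23.5 ± 0.848, SD, n = 3) and 46.9, 44.6 and 46.3 in the EV+IL-2 libraries (45.9 ± 1.16, SD, n = 3). The groups did not overlap, and every EV+IL-2 library lay above every other library of the series. The rise was 0.94 on the log2(scaled TPM + 1) scale (SE 0.13, 95% interval 0.65 to 1.24), or 1.92-fold, with an adjusted p of 0.000914 (limma, Benjamini-Hochberg over all 15043 genes). Fewer cells of a type and less RNA per cell cannot be told apart in such bulk libraries. The rise held in all 17 alternatives tried, with log2 fold changes between 0.84 and 0.97.

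Tfrc is also a strongly expressed gene of red cell precursors, so the erythroid markers were set beside it. Of 7 such genes, the α-globin genes Hba-a1 and Hba-a2 made up most of the higher sum in EV+IL-2, at means of 18.2 and 12.4 scaled TPM against 0.661 and 0.523 in the control. The β-globin gene Hbb-bt was also above the control in every EV+IL-2 library, at 1.59 against 0.296, while Hbb-bs was at 0.155 against 0.197. Alas2 and Klf1, which help to define the lineage, summed to 0.184 to 0.504 scaled TPM in the EV+IL-2 libraries and to 0.483 to 1.43 in the other 9. These low levels overlapped between the groups. The part of the globin signal in the Tfrc level was not tested.

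Without soluble IL-2, the tethered constructs did not bring Tfrc to that level. It stood at 24.8, 22.3 and 16.3 scaled TPM in the 1G12t libraries (21.1 ± 4.37, SD, n = 3), a range that takes in the EV no IL-2 levels. In the 3A10t libraries it stood at 18.0, 14.5 and 15.6 (16.0 ± 1.77, SD, n = 3), all below every EV no IL-2 library. The 3A10t value was -0.53 from EV no IL-2 (SE 0.13, 95% interval -0.82 to -0.23), with an adjusted p of 0.0675 in limma, which misses the threshold of 0.05. By its limma values it met the looser rule of the study's methods, an unadjusted p under 0.01 with a log2 fold change beyond 0.25. The study applied that rule to DESeq2 on counts, so a call here need not be a call there. In this comparison 9.50% of all genes met it by limma. With TPM as deposited the adjusted p was 0.0433, without 3A10t replicate 1 it was 0.0161, and with values corrected for transcript length the difference was -0.34 with an adjusted p of 0.16. Against EV+IL-2, Tfrc was lower in 3A10t by -1.47 (SE 0.13, 95% interval -1.76 to -1.17, adjusted p = 5.7e-05, limma), and this held in all 18 alternatives.

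Slc11a2 encodes the divalent metal transporter that passes iron from endosomes to the cytosol (chromosome 15, 100387898 to 100425072, minus strand). The EV no IL-2 libraries held 22.9, 24.8 and 23.9 scaled TPM of it, and the EV+IL-2 libraries 23.8, 25.1 and 22.9. The 1G12t libraries had 23.5, 23.4 and 18.3 and the 3A10t libraries had 21.5, 20.4 and 23.4. All groups overlapped EV no IL-2. The difference of EV+IL-2 from EV no IL-2 had a 95% interval of -0.22 to 0.22 on the log2 scale, so a change of the size seen for Tfrc lies outside it. No comparison of Slc11a2 passed the threshold.

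**Figure D2:**
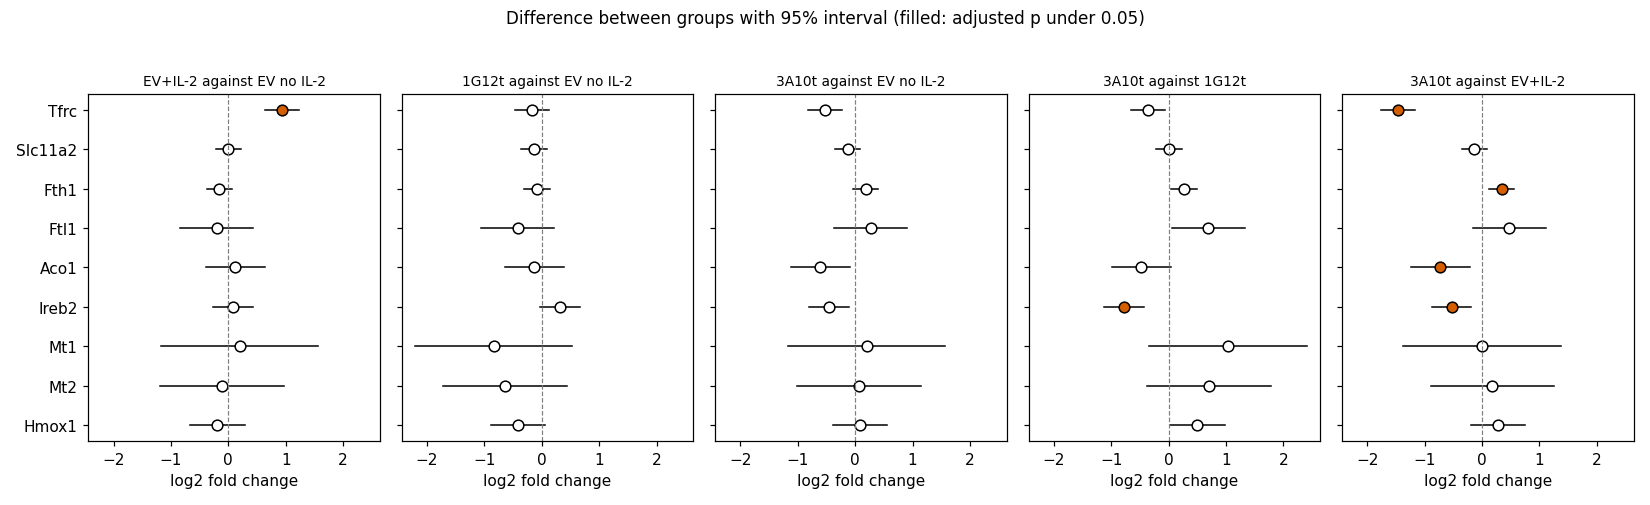
Differences between groups on the log2(scaled TPM + 1) scale (horizontal axes, first group minus second) for the 9 tested genes (vertical axis), 1 panel per comparison, with points for limma estimates, lines for 95% intervals and filled points for an adjusted p under 0.05. Tfrc is filled at 0.94 in EV+IL-2 against EV no IL-2 and at -1.47 in 3A10t against EV+IL-2, and the lines of Mt1 and Mt2 are the widest.

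The ferritin genes had the highest levels of the members. Fth1, the heavy chain that oxidises iron for storage (chromosome 19, 9980598 to 9985098, plus strand), stood at 1883, 1872 and 1688 scaled TPM in the control libraries without IL-2 and at 1636, 1624 and 1613 with it. The 1G12t libraries had 1767, 1764 and 1612, and the 3A10t libraries had 1862, 2466 and 1897. EV+IL-2 lay below EV no IL-2 in all libraries, with a narrow gap, and 3A10t replicate 2 stood above all others. The difference of EV+IL-2 from EV no IL-2 was -0.16 (SE 0.10, adjusted p = 0.375, limma), which did not pass. With TPM as deposited it was -0.22 with an adjusted p of 0.0228, and quantile normalization also brought it past the threshold.

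Between 3A10t and EV+IL-2 the Fth1 difference passed. Fth1 was higher in 3A10t by 0.34 on the log2 scale (SE 0.10, 95% interval 0.12 to 0.56, adjusted p = 0.0329, limma), with all 3A10t libraries above all EV+IL-2 libraries. The call held in 13 of 18 alternatives and was lost without any 1 of the EV+IL-2 libraries (adjusted p = 0.0825 to 0.0882). Without 3A10t replicate 2 the difference was 0.21 with an adjusted p of 0.0469, and with the length correction it was 0.22 with an adjusted p of 0.0258. In this pair of groups, then, Tfrc was lower and Fth1 higher in 3A10t. Against EV no IL-2, 3A10t differed by 0.18 (adjusted p = 0.263) and 1G12t by -0.08 (adjusted p = 0.844), and neither passed.

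Ftl1, the light chain that helps to lay down the iron core (chromosome 7, 45457944 to 45459884, minus strand), was measured at 5800, 5735 and 4959 scaled TPM in the EV libraries without IL-2 and at 4699, 5308 and 4344 in those with it. The 1G12t libraries had 5496, 5348 and 2358, and the 3A10t libraries had 5482, 8815 and 6022. Its extremes were thus single libraries, 1G12t replicate 3 at the low end and 3A10t replicate 2 at the high end. No comparison passed, and the intervals were wide, as from -0.84 to 0.43 for EV+IL-2 against EV no IL-2. A near-identical gene, Ftl1-ps1, was listed at 142 to 531 scaled TPM, and Ftl1 stood at 16 to 17.3 times its level in every library, so the level of Ftl1 is uncertain by the share of reads assigned to its copy.

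Light chain and heavy chain transcripts kept a near-steady ratio in all but 1 library. Ftl1 over Fth1 was 2.94 to 3.08 in EV no IL-2, 2.69 to 3.27 in EV+IL-2 and 2.94 to 3.58 in 3A10t. In 1G12t it ran from 1.46 to 3.11, with the low value in replicate 3, where Ftl1 was low and Fth1 stood near the other libraries. Over the 12 libraries the Pearson correlation of both genes on the log2 scale was 0.76, and without 1G12t replicate 3 it was 0.96. These points share libraries and include the short-transcript rise of 3A10t replicate 2.

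Slc40a1 encodes ferroportin, the only known iron exporter of mammalian cells, which is abundant in macrophages that recycle red cells (chromosome 1, 45908068 to 45926523, minus strand). It was close to absent: its levels in scaled TPM were 0.403, 0.117 and 0.269 for EV no IL-2, 0.0705, 0.0102 and 0.0689 for EV+IL-2, 0.812, 0.567 and 0.247 for 1G12t, and 0.419, 0.691 and 0.488 for 3A10t. The EV+IL-2 libraries were the lowest of all 12. Summed macrophage and monocyte markers ran the same way, from 1.67 to 2.19 scaled TPM with IL-2 and from 2.19 to 3.81 without it in EV cells, from 3.11 to 4.75 in 1G12t and from 3.44 to 5.27 in 3A10t. The EV+IL-2 libraries also listed the fewest genes above 0, as given above. The part of either in the Slc40a1 level was not tested.

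The iron regulatory proteins are the sensors. Aco1 encodes IRP1, which is a cytosolic aconitase when it holds an iron-sulphur cluster and an RNA-binding protein when it does not (chromosome 4, 40143081 to 40198338, plus strand). Its scaled TPM were 23.8, 25.2 and 23.6 for EV no IL-2, 27.2, 27.2 and 24.8 for EV+IL-2, 25.1, 23.9 and 17.8 for 1G12t, and 25.1, 12.8 and 11.6 for 3A10t. The 3A10t libraries were split: replicate 1 lay with the other groups, and replicates 2 and 3, the libraries with low long transcripts, lay at the lowest levels of the series. The 3A10t level of Aco1 was below that of EV+IL-2 by -0.73 (SE 0.23, 95% interval -1.24 to -0.22, adjusted p = 0.044, limma), although the groups overlapped. The call held in 8 of 18 alternatives and was lost without any 1 library of these groups other than 3A10t replicate 1 (adjusted p = 0.0834 to 0.149). With the length correction the value was -0.58 with an adjusted p of 0.0519. Against EV no IL-2 the 3A10t value was -0.61 (adjusted p = 0.141), and without 3A10t replicate 1 it was -0.93 with an adjusted p of 0.00129.

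Ireb2 encodes IRP2, which is removed by iron-dependent degradation of the protein (chromosome 9, 54863789 to 54912530, plus strand). Its scaled TPM were 5.76, 6.89 and 6.59 for EV no IL-2, 6.87, 5.72 and 8.0 for EV+IL-2, 8.14, 7.15 and 9.62 for 1G12t, and 5.58, 3.74 and 4.06 for 3A10t. All 3A10t libraries lay below all libraries of the other groups, and all 1G12t libraries lay above all EV no IL-2 libraries. Its highest level was in 1G12t replicate 3.

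Ireb2 was the 1 member to pass between the tethered constructs. It was lower in 3A10t than in 1G12t by -0.78 (SE 0.16, 95% interval -1.12 to -0.43, adjusted p = 0.0343, limma). The call held in 8 of 18 alternatives and was lost when any 1 library was left out, other than 3A10t replicate 1: without another library of these groups the adjusted p ran from 0.0655 to 0.111. With the length correction the difference was -0.56 (adjusted p = 0.053). Against EV+IL-2, Ireb2 was lower in 3A10t by -0.53 (SE 0.16, adjusted p = 0.0326, limma), which held in 12 of 18 alternatives, the length correction among them (-0.40, adjusted p = 0.0415), and was lost without replicates 1 or 3 of EV+IL-2, or 2 or 3 of 3A10t, each left out alone (adjusted p = 0.0932 to 0.115). The differences from EV no IL-2 were -0.45 for 3A10t (adjusted p = 0.118, or 0.0218 without 3A10t replicate 1) and 0.32 for 1G12t (adjusted p = 0.712), and neither passed with all libraries.

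**Figure D3:**
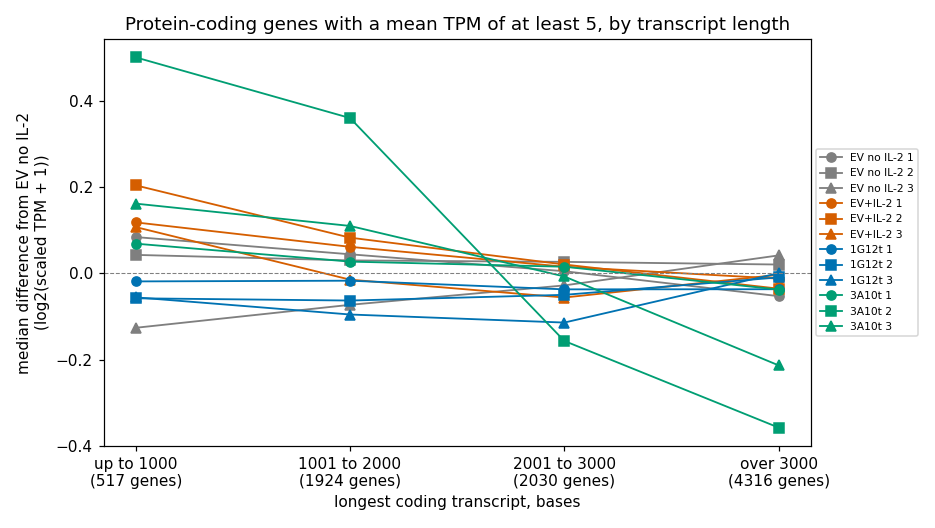
Median difference from the mean of EV no IL-2 on the log2(scaled TPM + 1) scale (vertical axis) for protein-coding genes whose mean TPM was 5 or more, in 4 classes of longest coding transcript (horizontal axis, bases), with 1 line per library. The line of 3A10t replicate 2 runs from 0.50 for transcripts up to 1000 bases to -0.36 over 3000, that of 3A10t replicate 3 from 0.16 to -0.21, and over 3000 bases the lines of the other libraries lie nearer to 0, although EV+IL-2 replicate 2 reaches 0.20 up to 1000 bases.

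The length trend moves with the differences of 3A10t and so stands beside them. Genes with transcripts over 3000 bases had a median log2 fold change of -0.21 in 3A10t against EV no IL-2, and 517 genes with transcripts up to 1000 bases had 0.24, beside 0.026 over all tested genes. Set against EV+IL-2, the medians of 3A10t were -0.20, 0.064 and 0. The Tfrc, Aco1 and Ireb2 values of 3A10t, from -0.45 to -0.61 against EV no IL-2, lay beyond the median of long transcripts in the same direction. After the correction for length they were -0.34, -0.42 and -0.30, and none passed. How far the trend accounts for the rest was not tested. The B cell marker sum was higher in 3A10t as well. It was 20.9 to 27.2 scaled TPM there, above the 15.5 to 17.9 of EV no IL-2 and the 14.5 to 17.4 of EV+IL-2. Of 3 tested, 1, Cd74, was called higher against EV+IL-2 (0.95, adjusted p = 0.0411, limma), at 10.1 against 4.95 scaled TPM. Cd79b was at 10.7 in 3A10t, 10.2 in EV+IL-2 and 7.88 in EV no IL-2. The part of the B cell markers in the 3A10t values of Tfrc, Fth1, Aco1 and Ireb2 was not tested.

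The metallothioneins Mt1 and Mt2 are small cysteine-rich proteins that bind zinc and copper, and their genes are switched on by zinc through the factor MTF1, which binds metal response elements (MREs), and by glucocorticoids. They lie next to each other on chromosome 8, Mt2 at 94172664 to 94173568 and Mt1 at 94179082 to 94180327, both on the plus strand. Because both genes varied together, the 250 bases before a RefSeq start of each are shown (GRCm38.p6, a start that differs from that of the GENCODE gene just given), chr8:94172368-94172617 for Mt2 and chr8:94178839-94179088 for Mt1. Capitals mark the core of an MRE, TGCACNC or TGCGCNC, on either strand.
Mt2: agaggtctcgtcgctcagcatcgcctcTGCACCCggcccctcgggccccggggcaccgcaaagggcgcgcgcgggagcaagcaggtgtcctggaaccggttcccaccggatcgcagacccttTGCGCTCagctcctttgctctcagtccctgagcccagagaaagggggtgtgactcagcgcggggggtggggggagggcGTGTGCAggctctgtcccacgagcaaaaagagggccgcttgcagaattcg
Mt1: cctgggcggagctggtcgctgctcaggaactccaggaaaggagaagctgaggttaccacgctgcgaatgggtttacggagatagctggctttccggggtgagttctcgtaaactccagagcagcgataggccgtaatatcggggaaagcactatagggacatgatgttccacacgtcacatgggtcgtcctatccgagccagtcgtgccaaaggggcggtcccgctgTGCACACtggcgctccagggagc
The core matched 3 times before Mt2 and 1 time before Mt1, and in the longer window of the source, which runs past the start, 4 and 3 times. It was not confined to the metallothioneins among the members. Before a start of Tfrc, at chr16:32608646-32608895, it matched 2 times, and before another, at chr16:32608872-32609121, 0 times. Of 32851 promoters of this length, 21.4% held at least 1 match and 5.17% at least 2. These matches describe the letters and not binding.

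The scaled TPM of Mt1 were 98.7, 105 and 94.0 for EV no IL-2, 101, 131 and 112 for EV+IL-2, 114, 104 and 13.6 for 1G12t, and 98.9, 162 and 92.5 for 3A10t. Mt2 was lower throughout, at 21.0, 17.8 and 19.2 for EV no IL-2, 16.4, 18.7 and 18.2 for EV+IL-2, 20.1, 20.7 and 3.78 for 1G12t, and 17.9, 31.5 and 14.6 for 3A10t. For both genes 3A10t replicate 2 was the highest library and 1G12t replicate 3 the lowest, and the other 10 lay between 92.5 and 131 for Mt1 and between 14.6 and 21.0 for Mt2. Neither gene passed in any comparison. For EV+IL-2 against EV no IL-2, Mt1 differed by 0.20 (95% interval -1.17 to 1.57) and Mt2 by -0.12 (95% interval -1.19 to 0.96), intervals wide enough to hold a change of the size of that of Tfrc. The 12 libraries shared 1 estimate of the spread for each gene, and the SD of Mt1 on the log2 scale was 1.68 within 1G12t and 0.082 to 0.44 within the other groups.

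Mt1 over Mt2, on the TPM scale that allows levels of different genes to be compared per length, was 4.71 to 5.91 in EV no IL-2, 6.13 to 7.04 in EV+IL-2, 3.59 to 5.69 in 1G12t and 5.14 to 6.34 in 3A10t. The lowest ratio was that of 1G12t replicate 3, in which both genes were low. Their Pearson correlation over 12 libraries was 0.97 on the log2 scale, and 0.77 without that library. The other pairs among members gave correlations from -0.795 to 0.918 over all 12 libraries, Ireb2 with Ftl1 being the lowest and Ftl1 with Hmox1 the highest. Without 1G12t replicate 3 these pairs gave -0.779 and 0.731, and Fth1 with Ftl1 was the highest, at 0.963. Some pairs changed sign without it, such as Slc11a2 with Mt1, from 0.673 to -0.388.

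In 1G12t replicate 3 the drop from the mean of the other 1G12t libraries was -2.91 on the log2 scale for Mt1, -2.16 for Mt2, -1.20 for Ftl1 and -0.87 for Hmox1. Ranked from the lowest among 10042 genes whose mean TPM was 5 or more, these stood at places 25, 46, 85 and 141. Tfrc differed by -0.50, Aco1 by -0.44, Slc11a2 by -0.34 and Fth1 by -0.13, and Ireb2 was higher by 0.30. Among the 9 tested members, the metallothioneins were lower by most. For Fth1, 29.7% of the 10042 genes lay lower still. The share of all genes that were lower in this library was not counted. In this library, shifts of more than 1 stayed within the ranges of the 12 libraries: 112 genes were lower (49 to 181) and 156 higher (57 to 190). The B cell marker sum of that library was 26.9 scaled TPM, against 14.2 and 16.4 in the other 1G12t libraries, and its part was not tested. It listed 43285 genes above 0, against 42586 and 42088 in the other 1G12t libraries.

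**Figure D4:**
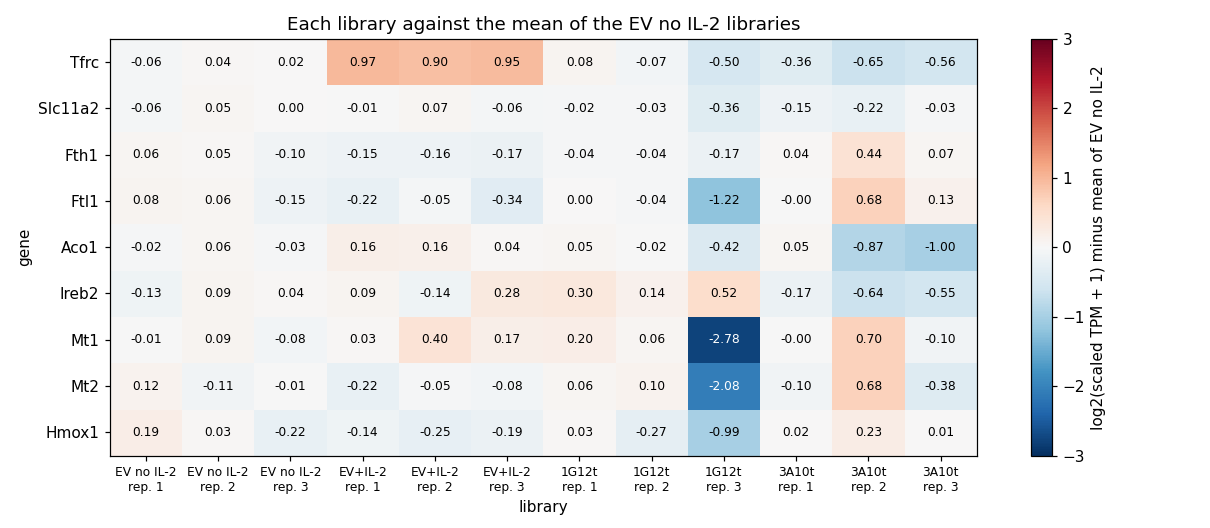
Difference of each library (horizontal axis) from the mean of the EV no IL-2 libraries on the log2(scaled TPM + 1) scale, printed and coloured for each of the 9 tested genes (vertical axis), red for higher and blue for lower. The EV+IL-2 columns are red in the Tfrc row, at 0.90 to 0.97, and 1G12t replicate 3 is darkest at -2.78 for Mt1 and -2.08 for Mt2.

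Hmox1 encodes haem oxygenase 1, which opens haem and frees its iron, and which responds to haem and oxidative stress through BACH1 and NRF2 (chromosome 8, 75093621 to 75100589, plus strand). Its scaled TPM were 11.9, 10.5 and 8.74 for EV no IL-2, 9.28, 8.52 and 8.95 for EV+IL-2, 10.6, 8.37 and 4.69 for 1G12t and 10.5, 12.3 and 10.4 for 3A10t. All 3A10t libraries lay above all EV+IL-2 libraries, the groups overlapped in the other comparisons, and 1G12t replicate 3 was the lowest of the 12. For EV+IL-2 against EV no IL-2 the difference was -0.19 (SE 0.21, adjusted p = 0.658, limma), and no comparison passed. Summed macrophage markers stayed at or below 5.27 scaled TPM in every library.

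Counting over the members, EV+IL-2 against EV no IL-2 had 1 of 9 tested genes called higher and 0 lower at an adjusted p under 0.05, beside 8.17% of all tested genes called higher and 5.13% lower. Under the study's looser rule, applied here to limma values, Tfrc was again the 1 member called, where the rule took 15.1% of all genes. A share of 1 in 9 is near the background, so the members as a set are not marked out by soluble IL-2, and the finding is that of Tfrc alone. For 3A10t against EV no IL-2, 0 of 9 were called in limma, beside 0.452% of all genes higher and 1.60% lower. By the looser rule Tfrc was the 1 member called, beside 9.50% of all genes. For 1G12t against EV no IL-2, 0 of 9 were called, beside 0.0133% higher and 0.00665% lower and 1.36% by the looser rule.

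Between the constructs, 3A10t against 1G12t, 1 of 9 was called lower and 0 higher, beside 2.96% of all genes lower, 1.30% higher and 12.4% by the looser rule. For 3A10t against EV+IL-2, 3 of 9 were called lower (Tfrc, Aco1 and Ireb2) and 1 higher (Fth1), beside 13.0% of all genes lower, 10.3% higher and 22.1% by the looser rule. The EV no IL-2 libraries served in 3 of the 5 comparisons and the 3A10t libraries in 3, so these comparisons are not independent of each other.

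The genes with patterns most like the members across the 12 libraries were sought by Pearson correlation on the log2 scale, as a description with no test. The search covered 9196 genes whose mean TPM was 5 or more. Most non-coding RNA types and processed pseudogenes were left out of it, and members were not ranked. Tfrc was nearest to Sgk3, Lrrc57 and Bicd2, at 0.973 each, and at 0.971 to 0.974 without 1G12t replicate 3. Fth1 was nearest to Sra1, Ngrn and Tsr3, at 0.98, 0.976 and 0.975, or 0.976 to 0.989 without that library. Its highest level was in 3A10t replicate 2, and these correlations were not computed without 3A10t replicate 2. For Mt1 the nearest were Renbp, Trav6d-6 and Atp6v1d at 0.96 to 0.97, which became 0.65, 0.25 and 0.53 without 1G12t replicate 3 and so rested on it. Hmox1 was nearest to Gabarap, Ctsd and Adi1 at 0.94 to 0.96, or 0.75 to 0.83 without that library.

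For soluble IL-2 against none, other genes of iron handling were called about as often as genes at large. Of 17 tested genes of iron transport, storage and regulation, 1 rose and 1 fell in EV+IL-2 against EV no IL-2: Steap3, the reductase that turns endosomal iron to the form Slc11a2 can carry, at 2.09 against 0.838 scaled TPM (0.75, adjusted p = 0.0278, limma), and Pcbp3, of the family of poly(C)-binding proteins, at 8.87 against 12.2 (-0.42, adjusted p = 0.0382). Of all tested genes 8.17% were called higher and 5.13% lower. These calls held in 10 of 16 and 10 of 17 alternatives. The median log2 fold change of the list was 0.094, beside -0.014 over all genes. Set against EV+IL-2, 3 of these genes were higher and 3 lower in 3A10t, beside 10.3% and 13.0% of all genes, with a median of -0.14 beside 0. The 4 with the lowest adjusted p were Tmprss6 (1.17), Pcbp3 (0.55) and Tfr2, the second transferrin receptor (1.30), all higher in 3A10t, and Heatr3 (-0.58), lower, calls that held in 16 of 17, 17 of 18, 14 of 17 and 10 of 18 alternatives. Tmprss6 and Tfr2, known from liver, were at 1.97 and 2.54 scaled TPM in 3A10t and under 0.5 in EV+IL-2, the group with the fewest genes listed above 0, whose part was not tested.

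Among 21 tested genes of haem synthesis, transport and breakdown, Abcg2, which exports porphyrins, rose in EV+IL-2 from 21.8 to 30.8 scaled TPM (0.48, adjusted p = 0.0362, limma), and none fell, beside 8.17% and 5.13% of all genes. The call held in 9 of 17 alternatives. From EV+IL-2 to 3A10t, 4 fell and none rose: Abcg2 (-0.63), Abcb10 (-0.67), Alas1, the first enzyme of haem synthesis (-0.60), and Abcb6 (-0.41). These held in 17, 11, 14 and 8 of 18 alternatives, and 13.0% of all genes were called lower. Hmox2, the constitutive haem oxygenase, was higher in 3A10t than in 1G12t at 126 against 91.7 (0.45, adjusted p = 0.0462). It held in 6 of 18 alternatives. The median of the list was 0.068 for the effect of soluble IL-2 and -0.037 for 3A10t against EV+IL-2, beside -0.014 and 0 over all genes.

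Of 33 tested genes of iron-sulphur cluster assembly, 4 rose in EV+IL-2 and none fell, beside 8.17% of all genes called higher and 5.13% lower. Glrx3, a glutaredoxin that carries clusters, went from 67.3 to 99.1 scaled TPM (0.55, adjusted p = 0.00775, limma), Cisd1, the mitoNEET protein of the outer mitochondrial membrane, from 33.7 to 48.0 (0.50, adjusted p = 0.0128), Cisd3 from 46.3 to 64.0 (0.46, adjusted p = 0.0264) and Fdx1, a mitochondrial ferredoxin, from 37.6 to 49.3 (0.39, adjusted p = 0.0361). The calls of Glrx3 and Cisd1 held in 17 and 15 of 17 alternatives, and those of Cisd3 and Fdx1 in 10 and 9. The list's median was 0.057 beside -0.014 over all genes. Between 3A10t and 1G12t, Cisd1 was higher (0.50) and Mms19 (-0.51), a targeting factor of the cytosol, was lower in 3A10t, calls that held in 7 and 6 of 18 alternatives. Relative to EV+IL-2, Nubpl (0.75) and Ciao3 (0.29) were higher, and Mms19 (-0.48) was lower, in 11 of 17, 9 of 18 and 16 of 18 alternatives.

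Zinc handling was read from 16 tested genes of zinc transport and sensing, none of which is a metallothionein. In EV+IL-2, Slc30a4 rose from 3.47 to 6.25 scaled TPM (0.69, adjusted p = 0.0254, limma) and Slc30a7 from 32.5 to 48.1 (0.55, adjusted p = 0.027), both carriers that move zinc out of the cytosol, and none fell, beside 8.17% and 5.13% of all genes. These calls held in 8 of 16 and 10 of 17 alternatives. From EV+IL-2 to 3A10t, 4 fell and none rose: Slc30a4 (-1.06), Slc39a6 (-0.79), Slc30a7 (-0.62) and Slc30a5 (-0.83). The first held in 17 of 17 alternatives and the others in 17, 17 and 11 of 18, and 13.0% of all genes were called lower. The list's medians in these comparisons were 0.007 and -0.14, beside -0.014 and 0 over all genes.

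Hmox1 belongs to the NRF2 and BACH1 pathway, of which 23 other genes were tested. In EV+IL-2 against EV no IL-2, 2 were higher and 1 lower, about the share of all genes (8.17% and 5.13%). Nqo1, the quinone reductase, rose in EV+IL-2 from 2.60 to 8.05 scaled TPM (1.32, adjusted p = 0.000448, limma), Txn1, thioredoxin, rose from 149 to 213 (0.52, adjusted p = 0.00365), and Sqstm1 fell from 388 to 316 (-0.30, adjusted p = 0.015). The calls held in 16 of 16, 17 of 17 and 15 of 17 alternatives. The list's median was 0.011, beside -0.014 over all genes. Abcc4 was lower in 3A10t than in EV no IL-2 (-0.67, adjusted p = 0.0387), and Gss (0.44) and Prdx1 (0.49) were higher in 3A10t than in 1G12t, calls that held in 6 of 17, 8 of 18 and 6 of 18 alternatives. With EV+IL-2 as the reference, 3 rose and 6 fell in 3A10t, beside 10.3% and 13.0% of all genes, with Nqo1 (-1.20), Abcc4 (-0.62), Txnrd1 (-0.86) and Txn1 (-0.40) the lowest in adjusted p, which held in 17 of 17, 17 of 17, 17 of 18 and 18 of 18 alternatives. For 1G12t against EV no IL-2, 0 genes of the 5 lists were called in limma.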

How the data were processed

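The authors used Cutadapt 1.18 for trimming and STAR 2.5.3 for alignment to mm10, and estimated expression with RSEM 1.3.0 and a GENCODE annotation, and they tested counts with DESeq2 1.26. The deposited values are TPM, 1 column per library, already divided by transcript length and library total, so depth and counting error are unknown. No column was left unmapped. Each library was divided by its median-of-ratios factor, taken over the genes whose mean TPM was 1 or more. Tests used limma 3.58.1 in R 4.3.3 (lmFit and trended eBayes) on log2(scaled TPM + 1), with 12 libraries, 1 mean per group and no replicate block, with Benjamini-Hochberg adjustment over 15043 genes, since counts were not used here. The script was tested on simulated data. Fold changes on this scale understate those of low genes.

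The 10 genes, the 5 pathway lists and the marker lists were chosen with earlier results of these data known. Every member is named, with up to 4 called genes of lowest adjusted p per list and comparison and the 3 nearest genes of Tfrc, Fth1, Mt1 and Hmox1. Some genes of these lists that the rule would name are not reported here. The replicate number pairs samples, since the labels tie it to a separately sorted and activated part of the pool. Deviations from group means correlated at 0.08 on average over 18 pairs with the same number (-0.22 to 0.23) and at -0.04 over 36 other pairs. The length correction subtracted, per library, a lowess curve (span 0.3) of the difference from the mean on log transcript length. Of 15043 genes, 98.8% had a length in GENCODE M21, which was also the source of positions. Python 3.11.15 and matplotlib 3.10.9 drew the figures.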

Additional observations from a re-analysis of the deposited data

How the results depend on the processing

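Alternatives tried were pseudocounts of 0.1 and 5, filters at a mean TPM of 0 and 5, unscaled and quantile-normalized TPM, a fit of the 6 libraries compared, a replicate block, eBayes without a trend and leaving out each library in turn. Chosen after seeing the data were the length correction, the same with the block, and leaving out both 1G12t replicate 3 and 3A10t replicate 2. Members called were 1 in EV+IL-2 against EV no IL-2, 0 in 3A10t against EV no IL-2, 1 in 3A10t against 1G12t and 4 in 3A10t against EV+IL-2, and the replicate block gave the same counts: 1, 0, 1 and 4. In 3A10t against 1G12t the count was 0 without the filter, with only the 6 libraries, with the length correction (also with the block) and without both libraries, and 2 with TPM as deposited. In EV+IL-2 against EV no IL-2 it was 2 with deposited TPM and 2 after quantile normalization. In 3A10t against EV no IL-2 it was 1 with TPM as deposited. In 3A10t against EV+IL-2 it was 1 with only the 6 libraries, 2 without a trend and 2 without both libraries. With single libraries left out it ran from 0 to 3 in 3A10t against EV no IL-2, where 3A10t replicate 1 gave the 3, from 0 to 4 in 3A10t against 1G12t, where the same library gave the 4, and from 1 to 4 in 3A10t against EV+IL-2. The cause was not tested.

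Log2 fold changes that changed sign had missed the threshold. With TPM as deposited, Slc11a2 was -0.059 in EV+IL-2 against EV no IL-2 and -0.18 in 3A10t against 1G12t, and in 3A10t against EV no IL-2 Mt2 was -0.078 and Hmox1 -0.048. With quantile normalization, Slc11a2 was -0.030 in EV+IL-2 against EV no IL-2 and 0.018 in 3A10t against EV+IL-2, Ftl1 -0.24 in 3A10t and Fth1 0.0076 in 1G12t against EV no IL-2, and Mt1 0.0081 in 3A10t against EV+IL-2, where a pseudocount of 5 gave 9.3e-05. With the length correction, with or without the block, 3A10t against EV no IL-2 gave Slc11a2 0.061, Mt2 -0.12 and Hmox1 -0.038, and against EV+IL-2 Slc11a2 0.029. Without both libraries, 3A10t against EV no IL-2 gave Mt1 -0.052 and Mt2 -0.24, 1G12t against EV no IL-2 gave Tfrc 0.0028, Aco1 0.017, Mt1 0.13 and Mt2 0.077, 3A10t against 1G12t gave Slc11a2 -0.061, Mt1 -0.18 and Mt2 -0.32, and 3A10t against EV+IL-2 gave Mt2 -0.13. Leaving out 1 library gave, in EV+IL-2 against EV no IL-2, Slc11a2 -0.033 to 0.031 and Ireb2 -0.024 to 0.19. In 3A10t against EV no IL-2 it gave Hmox1 -0.020 to 0.18, Mt1 -0.052 to 0.35 and Mt2 -0.24 to 0.29. In 1G12t against EV no IL-2 it gave Tfrc -0.29 to 0.0028, Aco1 -0.22 to 0.017, Mt1 -1.36 to 0.13 and Mt2 -1.01 to 0.077, the upper ends without replicate 3. In 3A10t against 1G12t it gave Slc11a2 -0.10 to 0.065 and Mt2 -0.012 to 1.08, and against EV+IL-2 Mt1 -0.25 to 0.15 and Mt2 -0.13 to 0.40.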
